A study of Mus musculus with 53 samples.

Results

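Gene expression in the whole cornea of mice at postnatal day 28 (P28) was compared with that at postnatal day 14 (P14). The comparison took the 3 arrays titled Cornea P28 and the 3 titled Cornea P14, which are 6 of the 53 arrays of the series. All 19938 named genes of the Gene ST table were tested, each by its brightest probe set. The series measured RNA of mouse epithelial tissues on 53 Affymetrix arrays in 18 groups, and its design text takes the cornea arrays from earlier work of the same laboratory. The P28 and P14 corneas, like the other corneas used here (E14.5, E15.5, E17.5, P3 and P7, 3 arrays each), came from wild-type CB6 mice with no treatment. The labels give no sex, no eyelid status and no statement that the arrays of an age came from separate animals. Mouse eyelids normally open around the end of the second postnatal week, so the days between the ages hold the early weeks of an open eye. All p-values therefore rest on differences between arrays of an age that may be technical in part.

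The cornea is a transparent tissue with a stratified, non-cornified epithelium at the surface, a thick stroma of aligned collagen fibrils and a single-layered endothelium at the back. The epithelium is marked by keratin 12 and by abundant metabolic enzymes such as the aldehyde dehydrogenase Aldh3a1, and its outer cells carry a mucin coat and secrete small protective proteins. Stromal keratocytes lay down type I and type V collagen with small leucine-rich proteoglycans (lumican, keratocan, decorin) that set fibril diameter and spacing, and in mature corneas they are known as quiescent cells.

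Levels are given as log2(intensity + 16) after quantile normalization, on which 4 is the floor and the median over all genes and arrays was 8.12. A difference of 1 is 2-fold, and a difference is always P28 minus P14 unless other ages are named. Calls needed at least a 2-fold difference and, in limma, a p under 0.05 after Benjamini-Hochberg adjustment over all genes. The median difference over all genes was -0.04. Array medians before normalization were 7.962, 8 and 8.025 at P28 and 7.844, 8.124 and 8.101 at P14, and the lowest correlation between arrays of an age was 0.9767 at P28 and 0.9602 at P14. 2 arrays stood apart. P28 replicate 3 lay more than 1 log2 unit below both other P28 arrays in 146 genes, and P14 replicate 1 lay as far above both other P14 arrays in 105 genes. P28 replicate 1 also differed in sex-linked RNA. Xist, the RNA of the inactive X chromosome, had a level of 12.47 there, against 6.06 and 5.81 on the other P28 arrays and 5.47, 6.69 and 8.91 on the P14 arrays. The Y-linked gene Eif2s3y had 4.03 on P28 replicate 1, 10.84 and 10.8 on the other P28 arrays and 10.52 to 10.66 on the P14 arrays. Lens genes were high on replicate 2 of each age, with a summed intensity over 21 crystallin and other lens genes of 57529 there, against 10775 and 12195 on the other P28 arrays, and of 121970, against 6281 and 13926 on the other P14 arrays. No lens gene was called.

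To show the regulatory sequence of the gene with the largest increase, of a corneal water channel and of a leading stromal collagen, the 250 bases before the start of Cyp2b19, Aqp5 and Col1a2 are printed from RefSeq (build GRCm38.p6, all on the plus strand, 5′ to 3′). They lie at chr7:26756892-26757141 (Cyp2b19), chr15:99590778-99591027 (Aqp5) and chr6:4505368-4505617 (Col1a2). Capitals mark CACCC, a sequence that Klf-family factors are known to bind, in Cyp2b19 and Aqp5, and CCAAT, a common promoter box, in Col1a2, each searched on both strands, so that GGGTG is CACCC read on the other strand.
Cyp2b19: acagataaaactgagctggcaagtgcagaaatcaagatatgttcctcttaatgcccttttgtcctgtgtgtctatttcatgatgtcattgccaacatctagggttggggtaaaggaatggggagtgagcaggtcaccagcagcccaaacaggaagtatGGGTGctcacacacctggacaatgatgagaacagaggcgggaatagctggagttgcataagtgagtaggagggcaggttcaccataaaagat
Aqp5: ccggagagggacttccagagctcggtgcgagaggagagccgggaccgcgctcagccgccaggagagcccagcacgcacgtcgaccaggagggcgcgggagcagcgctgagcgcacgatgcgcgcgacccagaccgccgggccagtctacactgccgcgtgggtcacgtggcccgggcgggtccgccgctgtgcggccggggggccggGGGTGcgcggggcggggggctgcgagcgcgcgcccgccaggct
Col1a2: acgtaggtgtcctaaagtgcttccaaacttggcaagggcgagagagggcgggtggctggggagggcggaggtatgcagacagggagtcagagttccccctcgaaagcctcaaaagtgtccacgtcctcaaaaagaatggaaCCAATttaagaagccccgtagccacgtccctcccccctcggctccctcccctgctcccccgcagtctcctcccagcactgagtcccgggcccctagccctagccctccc
The single capital run begins 92 bases before the start in Cyp2b19, 43 in Aqp5 and 109 in Col1a2. CACCC is a common sequence and was present on either strand in 52.0% of the 32851 listed promoters, and CCAAT in 33.8%. Over the 15614 measured genes with a listed promoter the shares were 54.6% for CACCC and 35.5% for CCAAT. Of genes with a listed promoter, CACCC stood before 156 of 246 called higher (63.4%) and 261 of 425 called lower (61.4%). Of 17 collagen and collagen-processing genes called lower, CCAAT stood before 4 (23.5%), Col1a2 among them, and CACCC before 12 (70.6%). CACCC was not marked in Col1a2, whose window also holds it on the other strand. Matches of the 2 sequences may overlap, and a match is a description of these letters only.

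In P28 corneas 324 of 19938 genes were called higher (1.63%) and 567 were called lower (2.84%), 891 in all (4.47%). Of the 19938 genes 10947 had a difference below 0. These all-gene values are the background for the list counts that follow. The largest increase was that of Cyp2b19, a fatty acid epoxygenase known from mouse skin keratinocytes, and the largest decreases were those of Vwde, Otor, Tac1, Krtdap and the fibril-associated collagen Col14a1. Changes of at least 2 log2 units were seen in 50 genes called higher and 132 called lower. The 3 arrays of each age did not overlap in 306 of the 324 genes and in 557 of the 567, against 15.6% (higher) and 17.4% (lower) of all genes. The calls rest on the same arrays, so these counts carry no test. A further probe set existed for 38 called genes and had the same direction in 37 (97.4%). The split between higher and lower calls depended on the scaling of the arrays. Higher genes made up 36.4% of calls here, 50.3% (539 higher and 532 lower) with the values as deposited, and 54.0% (584 and 498) with each array shifted to the same median.

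**Figure D1:**
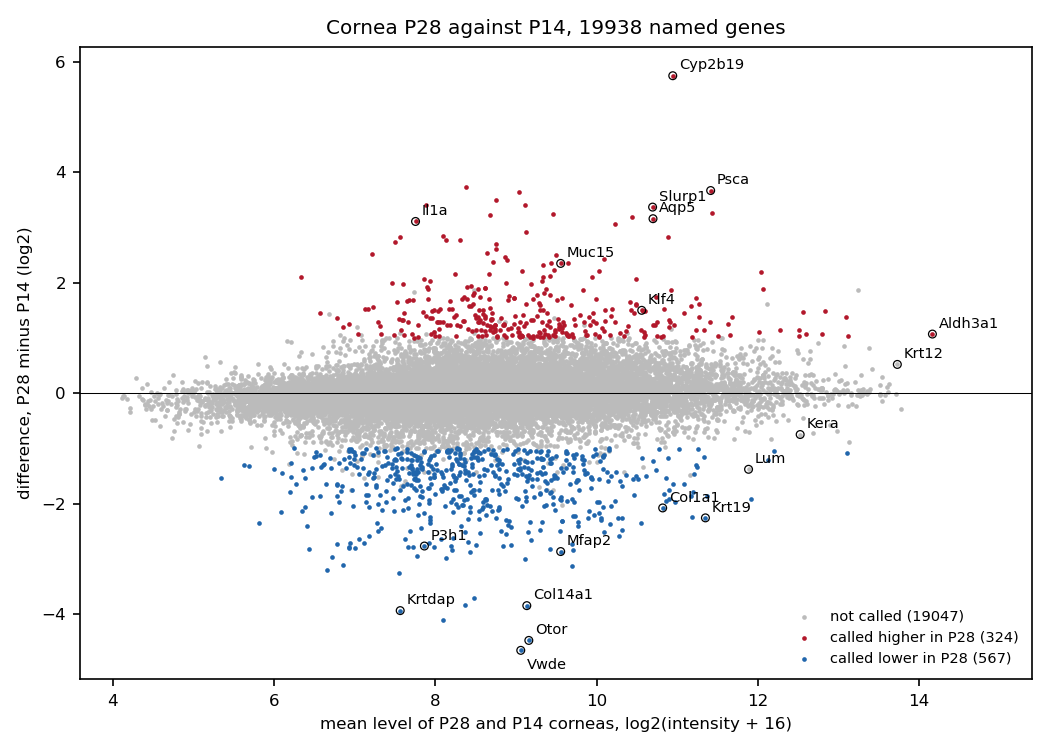
The difference of each of 19938 genes, P28 minus P14 in log2 units, against its mean level over both ages. Red points are the 324 genes called higher in P28 and blue points the 567 called lower. Cyp2b19 stands alone at 5.75, while Krt12 (0.52) and Kera (-0.75), bright genes of the epithelium and the stroma, were not called.

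Genes that define the corneal epithelium were bright at both ages, and 3 of 14 rose. Aldh3a1, an aldehyde-detoxifying enzyme and a major soluble protein of mouse corneal epithelium, had a level of 14.7 on all 3 P28 arrays, against 13.51, 13.49 and 13.89 at P14. Its deposited intensities of 20774, 21875 and 26447 were the highest of all probe sets on each P28 array, against 11358, 10353 and 13284 on the P14 arrays. Equal levels at P28 come from quantile normalization, which gives every rank the same value on each array. The increase was 1.07 ± 0.17 (SE, adjusted p = 0.000157, limma) and lay just under 2-fold (0.98) with the values as deposited and (0.93) with the 21 cornea arrays alone.

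Ehf, an Ets-family transcription factor of epithelia, had 12.48, 12.8 and 12.42 at P28, against 11.32, 11.51 and 11.57 at P14 (difference 1.1 ± 0.19, adjusted p = 0.000241). Klf4, a factor of epithelial differentiation, had 11.01, 11.08 and 11.83 at P28, against 9.91, 9.65 and 9.87 at P14 (difference 1.5 ± 0.35, adjusted p = 0.00461). No P28 array overlapped a P14 array in either gene, as in 15.6% of all genes in that direction. The Ehf difference came to 0.99 without P28 replicate 2, and that of Klf4 to 1.29 (adjusted p = 0.0519) when both arrays that stood apart were left out. Krt12, the keratin of corneal epithelium, had 14, 13.94 and 14.03 at P28, against 13.52, 13.42 and 13.46 at P14, a difference of 0.52 ± 0.22 that did not pass (adjusted p = 0.127). Pax6, the eye regulator, differed by 0.27 ± 0.24 (adjusted p = 0.53). The median difference of the 14 genes was 0.4, and their summed intensity was 108386 to 113751 at P28, against 70383 to 77408 at P14.

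Among the other structural lists of the epithelium few genes were called. None of 12 desmosome genes passed the 2-fold limit with the test, although 10 of 12 had positive differences (median 0.39), and the member with the largest, the cadherin Dsc3, differed by 0.97 ± 0.4 (adjusted p = 0.119). None of 12 genes of the basal layer and hemidesmosome was called. The integrin Itga6, with 11.69, 11.59 and 11.78 at P28, against 11.03, 10.49 and 10.65 at P14, differed by 0.97 ± 0.23, below the limit of 2-fold (adjusted p = 0.00658). Of 20 junction genes 16 had positive differences (median 0.52), 2 were called higher and 1 lower, and the 2 higher calls were lost without P28 replicate 1, P28 replicate 2, P14 replicate 2 or P14 replicate 3. With the values as deposited, or with each array shifted to the same median, 5 junction genes were called higher.

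The largest increases included that of the enzyme gene Cyp2b19 and those of genes for products of the epithelial surface. Cyp2b19, the gene with the largest, had levels of 13.49, 14.03 and 13.94 at P28, against 7.58, 8.18 and 8.44 at P14. It was near the median level of all genes at P14 and among the brightest genes of every P28 array, where its deposited intensities were 11887, 15743 and 15933, against 160, 304 and 347 at P14. The difference was 5.75 ± 0.18, a 53.9-fold higher level at P28 (adjusted p = 1.25e-15). Cyp2b19 has close relatives in its gene family, and how far the probe set tells them apart was not tested.

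Slurp1, Ly6g6c, Psca and Lypd2, small proteins of the Ly6 family that are secreted or held at the cell surface, rose as well, while Ly6d, Ly6g6e, Slurp2 and Lypd3 of the same family were not called. Slurp1, a secreted protein known from mouse cornea and skin, had 12.43, 12.33 and 12.38 at P28, against 8.76, 9.09 and 9.18 at P14 (difference 3.37 ± 0.22, adjusted p = 8.3e-10). Ly6g6c had 13.27, 13.1 and 12.81 at P28, against 10.04, 9.49 and 9.88 at P14 (3.26 ± 0.28, adjusted p = 3.64e-08). Their mean levels at P28 were 10.3-fold (Slurp1) and 9.55-fold (Ly6g6c) those at P14. Psca had 13.74, 13.75 and 12.25 at P28, against 9.73, 9.45 and 9.56 at P14 (3.67 ± 0.58, adjusted p = 0.000119), and Lypd2 rose by 1.38 ± 0.28 (adjusted p = 0.00141). Slurp1, Ly6g6c and Psca were the 3 genes called higher among 28 of secreted ocular surface defence, whose median difference was -0.01. Without P28 replicate 3 that count was 5.

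The surface coat changed in part. Among 17 mucin and glycocalyx genes 3 were called higher and 1 lower. Muc15, a membrane mucin, had 10.72, 10.75 and 10.73 at P28, against 8.71, 7.91 and 8.52 at P14 (2.35 ± 0.41, adjusted p = 0.000344). Gm9573, a mucin-like gene that stood on the list as Muc21, rose by 1.47 ± 0.32 (adjusted p = 0.00321). Muc1, a membrane mucin of many epithelia, fell, with 9.38, 9.02 and 7.83 at P28, against 10.38, 10.17 and 10.18 at P14 (-1.5 ± 0.29, adjusted p = 0.00102), and lay just under 2-fold (-0.97) with both arrays that stood apart left out. The list had 5 higher calls with the values as deposited, with each array shifted to the same median and with both arrays that stood apart left out, and 2 lower calls without P28 replicate 1.

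Water and ion transport genes moved both ways. Aqp5, the water channel of corneal epithelium and glands, had 12.29, 12.32 and 12.23 at P28, against 9.11, 8.93 and 9.32 at P14. The arrays of each age lay within 0.4 log2 units of each other and the difference was 3.16 ± 0.15 (adjusted p = 4.28e-12). Slc5a1, a sodium-glucose cotransporter, had 10.7, 10.88 and 8.14 at P28, against 7.29, 7.36 and 7.48 at P14 (2.53 ± 0.4, adjusted p = 0.000127). Clca2, a regulator of chloride channels, rose by 1.69 ± 0.15 (adjusted p = 5.69e-08), and Scnn1a, a subunit of the epithelial sodium channel, by 1.38 ± 0.21 (adjusted p = 7.71e-05). The chloride channel Cftr (-1.64 ± 0.3, adjusted p = 0.000506), the sodium pump subunit Atp1b1 (-1.36 ± 0.26, adjusted p = 0.000701) and the bicarbonate transporter Slc4a4 (-1.28 ± 0.24, adjusted p = 0.000807) fell. These made 4 higher and 3 lower calls among 23 genes. The call of Slc4a4 was lost without P14 replicate 2 (-1), and that of Cftr (-0.99) with both arrays that stood apart left out.

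Of 25 genes for epithelial proteases and their inhibitors 5 were called higher and 1 lower. Tmprss11e, a membrane serine protease of squamous epithelia, had 11.89, 12.27 and 11.94 at P28, against 9.11, 8.72 and 8.69 at P14 (3.19 ± 0.23, adjusted p = 2.97e-09). Its relative Tmprss11d had 11.96, 12.11 and 12.15 at P28, against 10.73, 9.86 and 10.82 at P14 (1.61 ± 0.36, adjusted p = 0.00348). Cystatins that inhibit cysteine proteases rose as well, Csta1 by 1.75 ± 0.3 (adjusted p = 0.000304) and Cst6 by 1.23 ± 0.14 (adjusted p = 3.01e-06). The summed intensity of the 25 genes was 54130 to 59785 at P28, against 21572 to 27343 at P14. With the values as deposited, or with each array shifted to the same median, 9 of them were called higher. The inhibitor Serpinb5, the remaining higher call (1.05 ± 0.29, adjusted p = 0.0153), was lost without P28 replicate 2 (adjusted p = 0.0514), P28 replicate 3 (0.0546) or P14 replicate 2 (0.0915). The lower call, Serpinb3a (-1.39 ± 0.41, adjusted p = 0.0237), was lost without P28 replicate 2, P28 replicate 3, P14 replicate 1 or P14 replicate 3 (adjusted p of 0.0526 to 0.138).

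Keratins known from simple epithelia fell. Krt7 had 10.42, 9.46 and 7.38 at P28, against 11.8, 11.57 and 11.32 at P14 (-2.48 ± 0.54, adjusted p = 0.0026). Krt19 had 10.98, 10.53 and 9.14 at P28, against 12.64, 12.44 and 12.36 at P14 (-2.26 ± 0.37, adjusted p = 0.000168). Krt8 (-1.5 ± 0.28, adjusted p = 0.000599) and Krt18 (-1.56 ± 0.36, adjusted p = 0.00442), partners in simple epithelia, also fell. P28 replicate 3 was the lowest array for Krt7 and Krt19, and the call of Krt7 was lost when it and P14 replicate 1 were left out (-1.51, adjusted p = 0.0559). Krt78, a keratin of squamous epithelia, rose, with 11.09, 10.77 and 9.58 at P28, against 8.73, 8.81 and 9.12 at P14 (1.59 ± 0.22, adjusted p = 2.62e-05). In all 3 of 15 keratins were called higher and 6 lower, with 1 higher without P28 replicate 1 and 3 lower when both arrays that stood apart were left out.

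Krt7 and Krt19 also mark conjunctiva, the mucous membrane beside the cornea. The 16 conjunctival, goblet and lacrimal genes had 3 lower calls and 16 negative differences (median -0.18). Their summed intensity was 4260 to 7669 at P28, against 12909 to 13894 at P14. The 3 calls were Krt7 and Krt19 themselves and Agr2, and the sum includes both keratins, so neither value is separate from them. The call of Agr2 was lost without P28 replicate 2, P28 replicate 3, P14 replicate 1 or P14 replicate 3 (adjusted p of 0.0586 to 0.142). With both arrays that stood apart left out 1 lower call was made. The part of conjunctival tissue in these differences was not tested. Of 18 genes associated with the limbus, the rim where corneal stem cells lie, 7 were called lower and 1 higher. The largest decrease was that of Fmod (-2.3), which is also counted among the small leucine-rich proteoglycans below. Gpha2, a glycoprotein hormone subunit known as a marker of quiescent limbal cells, had 11.1, 10.44 and 10.21 at P28, against 12.13, 11.96 and 11.54 at P14 (-1.3 ± 0.26, adjusted p = 0.00143). The transporter Abcg2 had 10.1, 10.12 and 10.43 at P28, against 9.25, 8.86 and 8.85 at P14 (1.23 ± 0.22, adjusted p = 0.000475). The count of lower limbal calls was 4 with the values as deposited and 2 with each array shifted to the same median. It was also 4 with both arrays that stood apart left out. Gpha2 lay just under 2-fold (-0.98) with the median shift and with both arrays left out.

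Of 24 genes of the epidermal cornified envelope 2 were called higher and 2 lower, with a median difference of -0.04. Krtdap, a secreted protein of differentiating keratinocytes, had 5.23, 6 and 5.56 at P28, against 10.33, 9.27 and 9 at P14 (-3.94 ± 0.3, adjusted p = 8.46e-09). Sbsn, from the same stage of epidermal differentiation, had 8.92, 8.86 and 8.6 at P28, against 10.36, 9.89 and 9.9 at P14 (-1.26 ± 0.16, adjusted p = 9.6e-06). The transglutaminase Tgm5 rose by 1.24 ± 0.14 (adjusted p = 1.91e-06). In lipid synthesis 1 of 22 genes was called higher, the desaturase Scd1 (2.22 ± 0.4, adjusted p = 0.000467), and 1 lower, the fatty acid elongase Elovl4 (-1.87 ± 0.33, adjusted p = 0.00042).

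**Figure D2:**
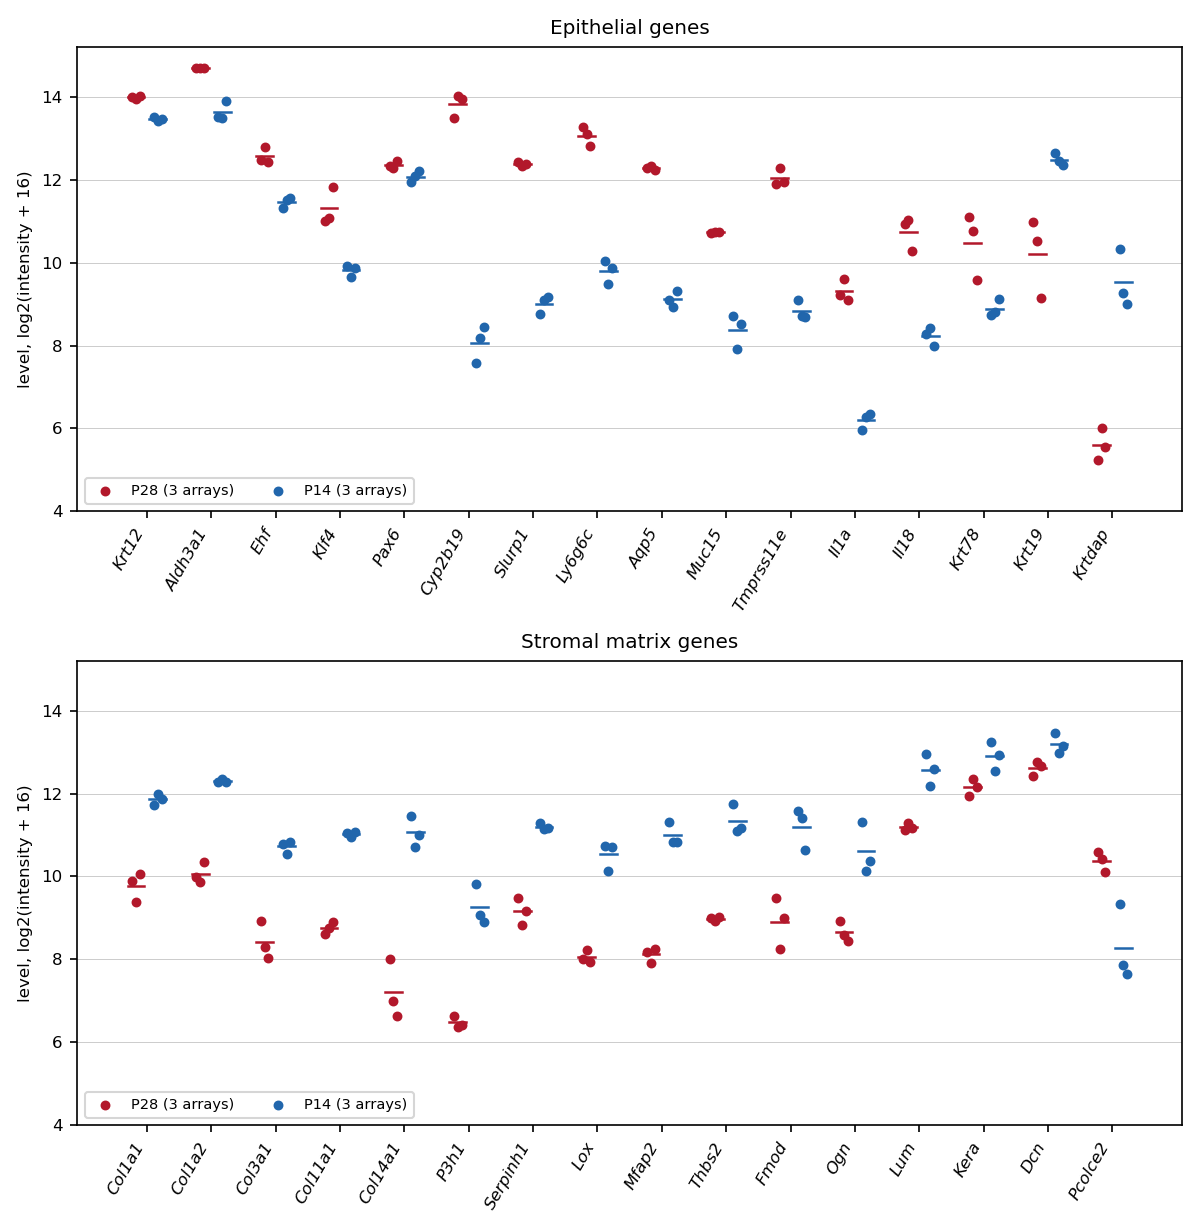
Levels on each array, log2(intensity + 16), of 16 epithelial genes (top) and 16 stromal matrix genes (bottom), with P28 in red to the left of P14 in blue. Points are arrays and bars are means of 3 arrays. Cyp2b19, Slurp1 and Aqp5 stand over 3 log2 units higher at P28. The collagens shown, P3h1, Serpinh1 and Lox lie 2 to 4 units lower, while Pcolce2 lies higher. Lum, Kera and Dcn lie closer together.

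Il1a, Il18 and Il1f9, cytokines of the interleukin-1 family, rose, while Il1b, Il33 and Il1rn of the same family were not called. Il1a, an alarm cytokine stored in epithelial cells, had 9.22, 9.6 and 9.11 at P28, against 5.96, 6.28 and 6.36 at P14 (3.11 ± 0.25, adjusted p = 1.36e-08). Il18 had 10.94, 11.02 and 10.29 at P28, against 8.29, 8.42 and 8 at P14 (2.51 ± 0.16, adjusted p = 7.23e-10). Il1f9, an older symbol of interleukin-36 gamma, had 12.14, 11.77 and 8.66 at P28, against 6.95, 7.32 and 7.4 at P14 (3.64 ± 0.49, adjusted p = 2.01e-05). The arrays of the ages did not overlap in any of the 3 genes, as in 15.6% of all genes in that direction. Il1a and Il1f9 stood among the 20 largest increases, which were drawn from genes without overlap, so this count carries no test. P28 replicate 3 lay over 3 log2 units below the other P28 arrays for Il1f9. Of 27 chemokine and cytokine genes 3 were called higher (Il1a, Il18 and the receptor chain Il20ra, 1.29 ± 0.14, adjusted p = 1.19e-06) and none lower, with a median difference of -0.02.

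Several of the largest increases had the same low array. AA467197 had 11, 11.18 and 8.58 at P28, against 6.69, 6.79 and 6.09 at P14 (3.73 ± 0.39, adjusted p = 6.73e-07). Plekhs1 had 11.91, 11.67 and 8.86 at P28, against 7.54, 7.57 and 7.14 at P14 (3.4 ± 0.44, adjusted p = 1.05e-05). Clca3b had 10.44, 10.78 and 7.33 at P28, against 6.39, 6.72 and 6.88 at P14 (2.85 ± 0.5, adjusted p = 0.000338). In all 3 genes P28 replicate 3 lay between the other P28 arrays and the P14 arrays. Of the 324 genes called higher, 52 were over 1 log2 unit lower on P28 replicate 3 than on both other P28 arrays, and 19 of the 567 genes called lower were. The myeloid integrin Itgam had 12.03, 11.72 and 9.21 at P28, against 8.37, 8.59 and 9.71 at P14, so its arrays overlapped (2.1 ± 0.44, adjusted p = 0.00195, and 0.0902 in a fit of the 6 arrays alone). The 28 genes of macrophages, mast and dendritic cells had 2 higher calls, 1 lower call and a median difference of -0.2. Their summed intensity was 5949 on P28 replicate 3, against 12121 and 9935 on the other P28 arrays and 6733 to 8207 at P14, and the part of such cells in the low values was not tested. Without P28 replicate 3, 379 genes were called higher and 489 lower, and 4 of the 28 myeloid genes were called higher.

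**Figure D3:**
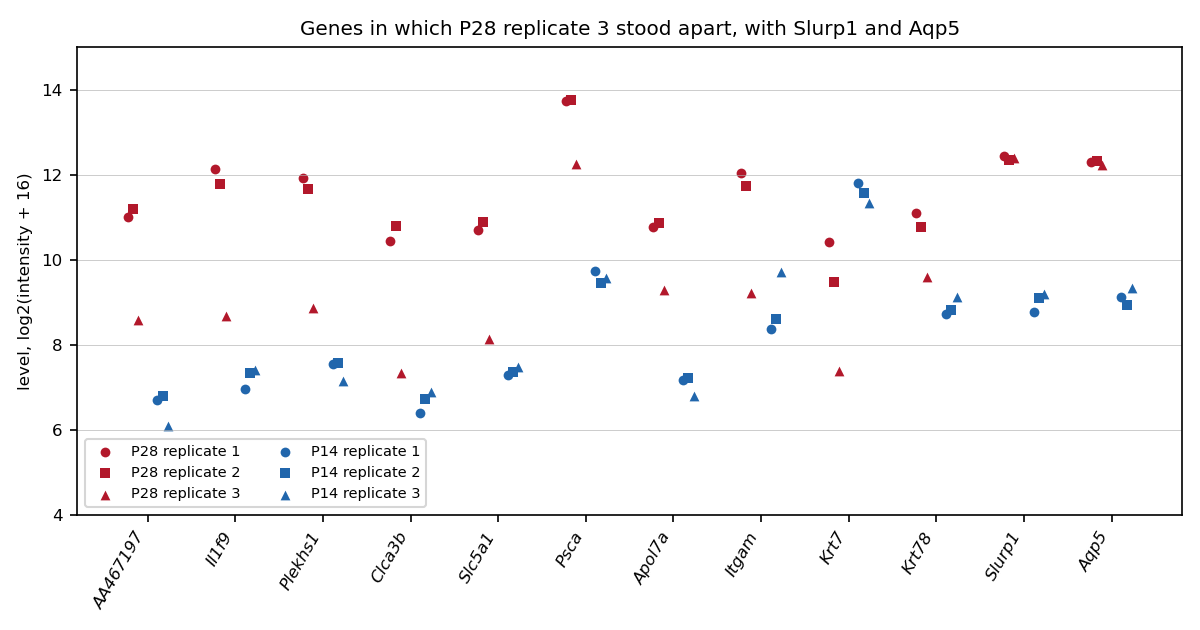
Levels, log2(intensity + 16), of 10 genes in which P28 replicate 3 (triangles) stood apart, with Slurp1 and Aqp5 beside them. P28 arrays are red and stand left of the blue P14 arrays, and marker shape gives the replicate number. In Slurp1 and Aqp5 the 3 P28 arrays lie within 0.2 log2 units of each other.

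Further large increases came from genes of antiviral and intracellular defence and from genes with no list. Samd9l, an interferon-inducible gene, had 12.04, 12.03 and 11.21 at P28, against 8.95, 8.38 and 8.77 at P14 (3.06 ± 0.44, adjusted p = 4.06e-05). Of 26 interferon and antigen presentation genes 2 were called higher, none lower, and 19 had positive differences (median 0.28), among them Irgm1 (1.48 ± 0.25, adjusted p = 0.000289). The summed intensity of the 26 genes was 23922, 16316 and 11529 at P28, against 15215, 12577 and 12838 at P14, so that P28 replicate 1 was the highest array and P28 replicate 3 the lowest. The other call, Ifit1, had 10.86, 9.32 and 7.86 at P28, against 8.01, 7.71 and 7.79 at P14, arrays that overlap (1.51 ± 0.44, adjusted p = 0.0246), and was lost without P28 replicate 1 (0.75, adjusted p = 0.213) and without P28 replicate 2, P14 replicate 2 or P14 replicate 3 (adjusted p of 0.0636 to 0.0831). Samd12 (3.24 ± 0.21, adjusted p = 6.29e-10), the noncoding RNA Lncpint (3.49 ± 0.31, adjusted p = 6.71e-08), the phosphatase Ptpn22 (2.83 ± 0.14, adjusted p = 5.36e-12) and the cytochrome P450 Cyp2f2 (2.82 ± 0.37, adjusted p = 1.1e-05) belonged to no list. Of 16 circadian clock genes 2 were called higher, with a median difference of 0.53. The clock repressor Nr1d1 had 11.33, 10.86 and 11.66 at P28, against 9.52, 9.74 and 9.77 at P14 (1.61 ± 0.28, adjusted p = 0.000312). The second clock call, Arntl, was lost without P28 replicate 2, P28 replicate 3, P14 replicate 2 or P14 replicate 3 (adjusted p of 0.0664 to 0.0836). It lay just under 2-fold (0.99) with the 21 cornea arrays alone. The labels do not give the hour of collection.

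Genes of the stromal matrix were mostly lower at P28. Over 8 lists of matrix genes together, 52 of 205 measured genes were called lower (25.4%) and 3 higher, against 2.84% lower over all genes. Their median difference was -0.45, against -0.04 over all genes, and 179 of 205 had negative differences, against 10947 of all 19938. In whole-tissue RNA, fewer cells of a type, less RNA per cell and more RNA from other cells cannot be told apart. This limit applies to every stromal value that follows.

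Of 11 fibrillar collagen genes 7 fell, all 11 had negative differences, and the median difference was -2.08. Col1a1, a chain of type I collagen that forms most of the stromal fibrils, had 9.88, 9.39 and 10.07 at P28, against 11.72, 11.98 and 11.88 at P14 (-2.08 ± 0.38, adjusted p = 0.000555). Col1a2, its partner chain, whose promoter is printed above, had 9.98, 9.87 and 10.35 at P28, against 12.27, 12.36 and 12.28 at P14 (-2.24 ± 0.41, adjusted p = 0.000544). Each was more than 4-fold lower, with every P28 array well below every P14 array.

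Col3a1 had 8.92, 8.29 and 8.04 at P28, against 10.79, 10.55 and 10.84 at P14 (-2.31 ± 0.39, adjusted p = 0.000241). The minor fibrillar chains Col11a1 (-2.27 ± 0.28, adjusted p = 7.78e-06) and Col5a2 (-2.11 ± 0.29, adjusted p = 1.94e-05), which regulate the start and width of fibrils, fell by a like amount, and so did Col24a1 (-2.15 ± 0.3, adjusted p = 2.59e-05). The summed intensity of the 11 genes was 4329 to 5457 at P28, against 16640 to 17831 at P14.

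The cell machinery that folds, trims and joins collagen was lower too. Of 31 such genes 11 were called lower and 1 higher, and the median difference was -0.74. P3h1, a prolyl 3-hydroxylase of the endoplasmic reticulum, had 6.64, 6.38 and 6.42 at P28, against 9.81, 9.06 and 8.9 at P14 (-2.77 ± 0.34, adjusted p = 4.81e-06). Serpinh1, the collagen chaperone, had 9.48, 8.84 and 9.16 at P28, against 11.28, 11.15 and 11.16 at P14 (-2.04 ± 0.24, adjusted p = 3.9e-06). Lox, the enzyme that starts collagen crosslinks, had 8, 8.23 and 7.94 at P28, against 10.74, 10.14 and 10.72 at P14 (-2.48 ± 0.49, adjusted p = 0.00119). Creb3l1, a membrane-bound transcription factor of collagen-secreting cells, fell by 2.49 on the log2 scale (SE 0.33, adjusted p = 1.29e-05), and P4ha3, a prolyl 4-hydroxylase subunit, by 2.64 (SE 0.44, adjusted p = 0.000224). The exception was Pcolce2, an enhancer of procollagen trimming, with 10.6, 10.43 and 10.11 at P28, against 9.33, 7.86 and 7.66 at P14 (2.1 ± 0.4, adjusted p = 0.000806). Its P14 replicate 1 lay above the other P14 arrays and below every P28 array.

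Nonfibrillar collagens had 7 lower calls among 28 and no higher call (median -0.37). Col14a1, a fibril-associated collagen, had 8, 7 and 6.64 at P28, against 11.47, 10.71 and 11.01 at P14 (-3.85 ± 0.44, adjusted p = 1.91e-06), a 14.4-fold lower level. Col8a1, a collagen of Descemet's membrane under the stroma, had 9.16, 8.59 and 8.74 at P28, against 11.24, 11.91 and 10.9 at P14 (-2.52 ± 0.42, adjusted p = 0.000241). Col6a3, a chain of beaded-filament collagen, fell by 1.96 on the log2 scale (SE 0.4, adjusted p = 0.00157).

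Lum, Kera and Dcn, which encode core proteins of the main corneal proteoglycans, were not called. Lum (lumican) had 11.11, 11.29 and 11.17 at P28, against 12.96, 12.18 and 12.59 at P14, a difference of -1.38 ± 0.47 that did not pass (adjusted p = 0.0537). Kera (keratocan) had 11.93, 12.36 and 12.16 at P28, against 13.24, 12.54 and 12.92 at P14 (-0.75 ± 0.52, adjusted p = 0.396). Dcn (decorin) had 12.43, 12.75 and 12.66 at P28, against 13.46, 12.97 and 13.14 at P14 (-0.58 ± 0.31, adjusted p = 0.255). The arrays of the ages did not overlap in any of these 3 genes, as in 17.4% of all genes in that direction. Whether these differences were smaller than those of the collagens was not tested.

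Others of the 14 small leucine-rich proteoglycans were called lower, 6 in all with a median of -1.07 over the list. Fmod, fibromodulin, had 9.47, 8.25 and 8.99 at P28, against 11.57, 11.41 and 10.63 at P14 (-2.3 ± 0.4, adjusted p = 0.000319). Ogn, osteoglycin, had 8.93, 8.58 and 8.45 at P28, against 11.31, 10.14 and 10.37 at P14 (-1.95 ± 0.31, adjusted p = 0.00014). With both arrays that stood apart left out the count of lower calls was 3.

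Enzymes that build the sugar chains of these proteoglycans changed in few cases. Of 19 keratan sulfate and sulfation genes 2 were called lower. Chst5, a sulfotransferase of corneal keratan sulfate in mice, had 9.22, 8.58 and 9.03 at P28, against 11, 11.37 and 10.99 at P14 (-2.17 ± 0.28, adjusted p = 1.05e-05), and Chst2 fell by 1.52 on the log2 scale (SE 0.24, adjusted p = 0.000121). Of 29 chondroitin, dermatan and hyaluronan genes 3 were called lower and 2 higher. The hyaluronan synthase Has2 fell (-2.2 ± 0.37, adjusted p = 0.000235), while the hyaluronan receptor Cd44 (1.38 ± 0.26, adjusted p = 0.000933), which epithelial cells also carry, and Csgalnact1, which starts chondroitin chains (2.15 ± 0.22, adjusted p = 4.96e-07), rose. The lower count was 1 with both arrays that stood apart left out.

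Elastic fibre and matricellular genes had 10 lower calls among 43 and none higher (median -0.7). Mfap2, a protein of fibrillin microfibrils, had 8.19, 7.92 and 8.26 at P28, against 11.32, 10.83 and 10.82 at P14 (-2.87 ± 0.3, adjusted p = 6.73e-07). Fbn2, the fibrillin of developing tissue, had 6.53, 5.96 and 6.49 at P28, against 9.62, 8.88 and 8.83 at P14 (-2.78 ± 0.35, adjusted p = 9.24e-06). Thrombospondin 2, encoded by Thbs2, had 8.99, 8.93 and 9.02 at P28, against 11.76, 11.1 and 11.17 at P14 (-2.37 ± 0.28, adjusted p = 3.96e-06). Postn, which encodes periostin, fell by 2.73 on the log2 scale (SE 0.5, adjusted p = 0.000538). Matrix proteases and inhibitors were lower too, with 6 of 30 called lower. They included the membrane metalloprotease Mmp16 (-2.77 ± 0.25, adjusted p = 9.09e-08), the collagen-degrading cathepsin Ctsk (-2.2 ± 0.46, adjusted p = 0.00182) and the inhibitor Timp2 (-1.5 ± 0.26, adjusted p = 0.000297).

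Of 21 genes associated with keratocytes, a list that shares Kera, Lum and other members with the matrix lists, 2 were called higher and 2 lower, with a median of -0.15. Their summed intensity was 43856 to 47051 at P28, against 33782 to 41331 at P14. Most of the P28 sum was that of Aldh3a1, called higher in this list too, which is also the brightest epithelial enzyme. Over the other 20 genes the sum was 17272 to 20467 at P28, against 22296 to 29693 at P14. The second gene called higher, Angptl7, a secreted factor of corneal stroma, had 10.78, 11.14 and 11.82 at P28, against 9.99, 9 and 9.78 at P14 (1.65 ± 0.44, adjusted p = 0.0125), with adjusted p = 0.0748 without P28 replicate 3 and 0.0863 without P14 replicate 2.

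Growth factor and imprinted growth genes made up another group of decreases. Of 32 genes 15 were called lower, against 2.84% of all genes, and none higher, with a median of -0.75. Igf1 had 8.07, 6.76 and 7.07 at P28, against 9.93, 9.9 and 9.64 at P14 (-2.53 ± 0.52, adjusted p = 0.00166). Igf2, an imprinted fetal growth factor, had 8.24, 7.34 and 7.56 at P28, against 10.03, 10.18 and 10.1 at P14 (-2.39 ± 0.29, adjusted p = 5.34e-06). The other imprinted genes Plagl1 (-2.79 ± 0.36, adjusted p = 1.22e-05), Grb10 (-2.63 ± 0.23, adjusted p = 3.65e-08), Peg3 (-2.26 ± 0.25, adjusted p = 1.68e-06) and Meg3 (-2.22 ± 0.38, adjusted p = 0.000283) fell as well. The 44 cell cycle genes had small differences, 38 of them negative with a median of -0.24, and only Ccnd2, a cyclin that also responds to growth factors, was called (-1.87 ± 0.26, adjusted p = 2.79e-05).

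**Figure D4:**
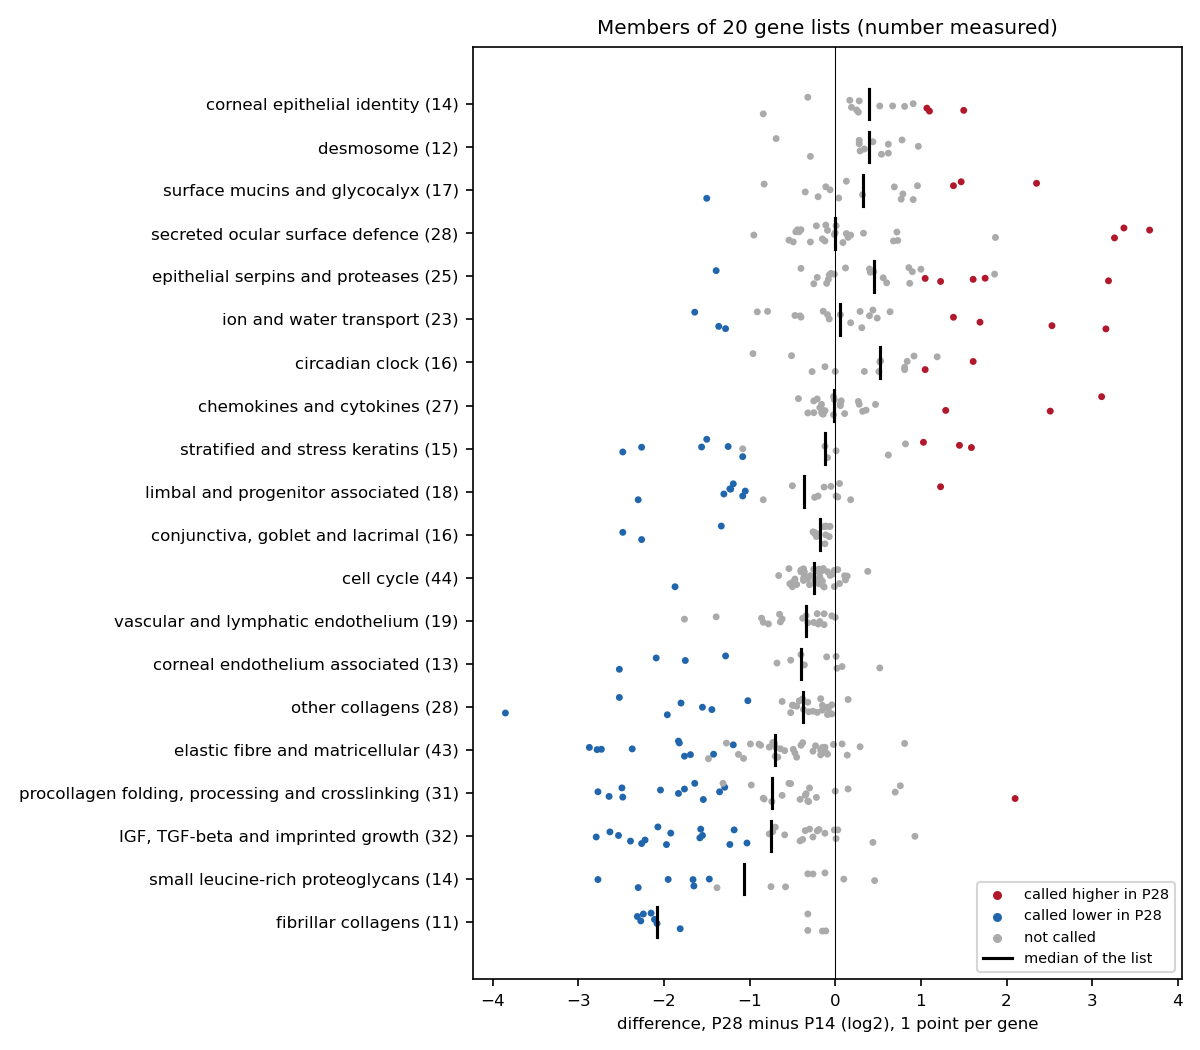
The difference, P28 minus P14 in log2 units, of every measured member of 20 gene lists, with the number measured in brackets. Points are genes, red where called higher in P28, blue where called lower and grey where not called, and black bars are list medians. The medians run from 0.53 in circadian clock genes to -2.08 in fibrillar collagens. The lists at the top hold scattered red points, except the desmosome genes, which hold none.

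The remaining largest decreases were of mixed kinds. Vwde, which encodes a protein with von Willebrand factor D and EGF domains, had 6.58, 6.63 and 6.99 at P28, against 10.78, 12.3 and 11.08 at P14 (-4.66 ± 0.39, adjusted p = 2.47e-08). Otor, a small secreted protein known from the inner ear, had 6.63, 7.15 and 6.99 at P28, against 12.52, 10.76 and 10.92 at P14 (-4.48 ± 0.44, adjusted p = 2.95e-07). Tac1, the precursor of substance P, had 5.72, 6.81 and 5.61 at P28, against 11.55, 9.6 and 9.31 at P14 (-4.11 ± 0.44, adjusted p = 8.65e-07). All 3 were bright at P14 and below the median level of all genes on every P28 array. Gabrp, a GABA receptor subunit (-3.72 ± 0.55, adjusted p = 5.65e-05), Mdk, the growth factor midkine (-3.01 ± 0.2, adjusted p = 8.3e-10), Sox11, a transcription factor of developing tissue (-2.95 ± 0.35, adjusted p = 3.62e-06), and Basp1 (-2.83 ± 0.15, adjusted p = 1.3e-11) also fell. Cthrc1, a secreted protein of matrix-producing cells (-3.13 ± 0.59, adjusted p = 0.000767), and Rcn3, a calcium-binding protein of the endoplasmic reticulum (-2.84 ± 0.4, adjusted p = 2.89e-05), stood outside the matrix lists.

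Markers of several other cell types in or near the cornea were lower beside the stromal decrease, and their part in it was not tested. Of 13 genes associated with corneal endothelium 4 were called lower and none higher (median -0.4), among them Cdh2 (-2.09 ± 0.44, adjusted p = 0.00193) and Ncam1 (-1.75 ± 0.23, adjusted p = 1.73e-05). The other calls were Col8a1 and Slc4a4, already counted above among the nonfibrillar collagens and the transport genes. The summed intensity of the 13 genes, Col8a1 and Slc4a4 included, was 9136 to 10587 at P28, against 11660 to 16058 at P14. None of 19 vascular and lymphatic genes was called (18 negative, median -0.34), and their sum was 4651 to 4681 at P28, against 6474 to 7373 at P14. The pericyte gene Rgs5 fell (-2.52 ± 0.62, adjusted p = 0.0076, and 0.0585 with both arrays that stood apart left out). The sum of 15 smooth muscle and pericyte genes was 2765 to 3253 at P28, against 4446 to 4848 at P14, and the count of 3 lower calls dropped to 1 without P28 replicate 3 or without P14 replicate 1. Of 15 nerve and Schwann cell genes 2 were called lower, Ncam1 again and the fatty acid binding protein Fabp7 (-1.39 ± 0.37, adjusted p = 0.0136), and the sum was 5143 to 5293 at P28, against 6005 to 7379 at P14. The Fabp7 call was lost without P28 replicate 1 (adjusted p = 0.0728) or P14 replicate 2 (0.0788). Of 14 melanocyte and pigment epithelium genes the endothelin receptor Ednrb was called lower (-2.41 ± 0.36, adjusted p = 6.01e-05) and the visual cycle enzyme Rpe65 higher (1.37 ± 0.28, adjusted p = 0.00142), with a sum of 3899 to 4566 at P28, against 4643 to 6831 at P14. The Rpe65 call was lost without P28 replicate 2 (difference 0.99) and in a fit of the 6 arrays alone (adjusted p = 0.0704). Of 16 genes of retina and iris neurons 15 had negative differences (median -0.49), and the rod transducin Gnat1 was called higher (1.36 ± 0.26, adjusted p = 0.000816). The sum of the 16 retina and iris genes was 3592 to 6806 at P28 and overlapped with 3207, 18773 and 8701 on P14 replicates 1, 2 and 3. P14 replicate 2 was also the array with the highest lens sum, and its part in the negative differences was not tested. No member was called among 25 skeletal muscle, 20 eyelid and hair, 15 lymphocyte and 8 red cell genes. None of these marker genes was at the floor on all arrays.

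The change after P14 was set against an earlier postnatal step of the same tissue, P7 minus P3, which shares no array with it. The step after P14 spans 14 days and the earlier one 4 days. In the earlier step 284 genes were called (1.42%), 173 higher (0.868%) and 111 lower (0.557%). Between P14 and P7, a span of 7 days, 3 genes were called (0.015%). These were Cmah and Sectm1b, higher at P14 (0.01%), and Angpt2, lower at P14 (0.00502%), and they are named because the count was small. A contrast of the steps called 596 genes (2.99%), of which 155 had a more positive change after P14 (0.777%) and 441 a more negative one (2.21%). Of the 205 matrix genes 41 had a more negative change after P14 and 3 a more positive one. Among fibrillar collagens 6 of 11 had a more negative change, with Col1a1 at -2.08 ± 0.54 (adjusted p = 0.0245) and Col1a2 at -2.34 ± 0.58 (adjusted p = 0.0177). Among the collagen-processing genes 10 of 31 had a more negative change, as P3h1 did (-2.87 ± 0.48, adjusted p = 0.000604).

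Epithelial genes lay on both sides of the step contrast. Aldh3a1, which rose by 3.81 between P3 and P7, had a contrast of -2.74 ± 0.24 (adjusted p = 3.01e-07). Krt12, which rose by 1.83 between P3 and P7, had a contrast of -1.31 ± 0.31 (adjusted p = 0.0134). For Tmprss11d, with an earlier increase of 4.82, the contrast was -3.21 ± 0.51 (adjusted p = 0.000367). Slurp1 (2.73 ± 0.32, adjusted p = 1.15e-05), Aqp5 (2.55 ± 0.21, adjusted p = 1.27e-07) and Il1a (2.61 ± 0.35, adjusted p = 6.14e-05) changed more after P14. Tmprss11e, with 3.19 after P14 and 3.14 in the earlier step, had a contrast of 0.05 ± 0.33 (adjusted p = 0.963).

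Over the 7 ages these groups followed different courses. Krt12 averaged 5.99 at E14.5, 13.16 at E15.5, 12.64 at E17.5, 11.63 at P3, 13.46 at P7, 13.47 at P14 and 13.99 at P28. Cyp2b19 stayed between 7.51 and 8.17 at the 6 ages before P28 and averaged 13.82 ± 0.29 at P28 (SD, n = 3). The keratin was thus bright from E15.5 on, and the P450 was bright at P28 alone among these ages. Col1a1 averaged 8.75 at E14.5, 12.62 at E15.5, 12.49 at E17.5, 12.16 at P3, 12.16 at P7, 11.86 at P14 and 9.78 at P28. Kera averaged 8.3 at E14.5 and 12.74 to 13.08 at the ages E15.5 to P14, with 12.15 ± 0.22 at P28 (SD, n = 3). Of the 324 genes called higher, 321 had their highest mean of 7 ages at P28 (99.1%, against 20.9% of all genes), and of the 567 called lower, 459 had their lowest mean there (81.0%, against 28.6% of all genes). The calls themselves place P28 above or below P14, so these shares describe the genes and carry no test.

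Genes were also ranked by the Pearson correlation of their 7 cornea age means with those of Col1a1 and Cyp2b19, as a description in which all points share the same arrays. Most like Col1a1 were Col12a1 (r = 0.9954), Ctsk (0.995), Zmat1 (0.9939), Col6a2 (0.9936), Col5a2 (0.9936) and Col6a3 (0.9932). Most like Cyp2b19 were Slc5a1 (r = 0.9982), Lncpint (0.9974), Il1f9 (0.9968), Smim31 (0.9963), Apol7a (0.9954) and Ipmk (0.9951).

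**Figure D5:**
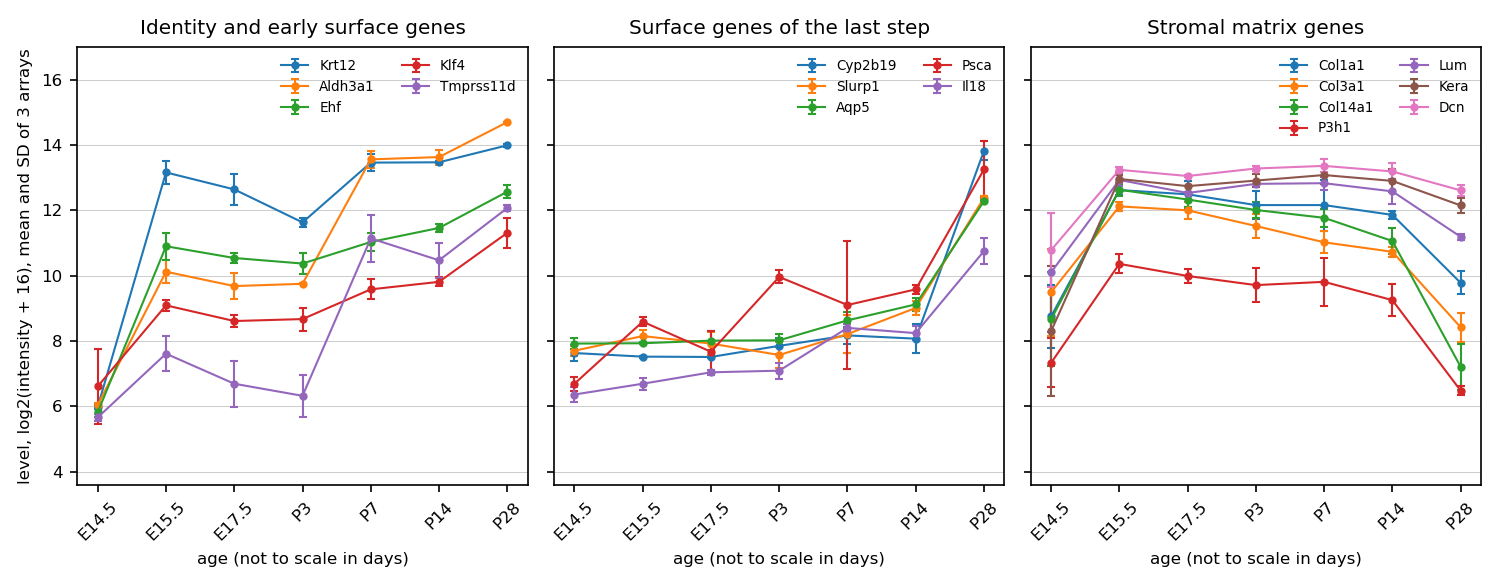
Mean levels, log2(intensity + 16), with SD of 3 arrays at 7 cornea ages, for identity and early surface genes (left), genes that rose in the last step (middle) and stromal matrix genes (right). The middle panel is titled surface genes but also holds the enzyme gene Cyp2b19 and the cytokine gene Il18. The ages are evenly spaced and not to scale in days. Cyp2b19, Slurp1 and Aqp5 climb between P14 and P28, and Col1a1, Col14a1 and P3h1 drop over the same step while Kera and Dcn stay above 12.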

How the data were processed

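RNA of whole cornea was measured on Affymetrix Mouse Gene ST arrays. The authors deposited 1 linear intensity for each probe set and array, and per the submitters' processing notes used PLIER 2.0 in Affymetrix Expression Console 1.1.1. Whether they normalized between arrays is not given in the sources consulted. No counts exist for arrays, so the number of arrays limits the precision.

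The 27 Gene ST arrays were taken to log2(intensity + 16), which understates changes of dim genes, and quantile-normalized over 35556 probe sets. The platform annotation gave gene names (21789 with 1 gene, 1621 with several and 12146 with none), with symbols updated through RefSeq (GRCm38.p6, 99.89% found). The brightest probe set stood for each of 19938 genes, and those without exactly 1 gene were left out. Tests used limma 3.58.1 in R 4.3.3 (lmFit and eBayes over 9 groups, two-sided, Benjamini-Hochberg over all genes). The procedure was tested on simulated data. The second table, of another array type, was not used.

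Replicate numbers come from the labels, which state no pairing of arrays between ages, and the main test used no pairing. Deviations of arrays with the same number correlated at 0.242, 0.133 and 0.134, and those with different numbers at -0.174 to 0.048. Whether the numbers stand for a shared origin or handling was not tested. Adding the replicate number as a block called 895 genes, of which 883 were also among the 891 called without it.

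The comparison, the 44 gene lists (881 measured genes) and the rules were chosen with earlier results of these data known. Genes named were called genes with non-overlapping arrays (the 20 largest increases and 20 largest decreases), up to 6 called members per list or the largest change where none was called, 10 genes nameable anywhere (Krt12, Ehf, Klf4, Pax6, Aldh3a1, Col1a1, Col1a2, Kera, Lum and Dcn), the 6 largest step differences each way, and 6 genes most like Col1a1 and most like Cyp2b19 in age course. Xist, Cmah, Sectm1b, Angpt2, Il1b, Il33, Il1rn, Ly6d, Ly6g6e, Slurp2 and Lypd3 were named after their values were seen. Alternatives were the values as deposited, a shift of each array to the same median, the 21 cornea arrays alone, only the ages compared, eBayes with trend and robust, a pseudocount of 1, a filter to genes over the table median, averaging a gene's probe sets, no fold limit, the replicate block and each array left out in turn. Leaving out P28 replicate 3 and P14 replicate 1 together was chosen after the data were seen.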

Additional observations from a re-analysis of the deposited data

Results flagged for a closer look

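The step after P14 (P28 minus P14) differed from the earlier postnatal step (P7 minus P3) by limma's contrast of the steps in the following genes, which had the largest such differences of those called. Fitted values are in log2 units, and the contrast was tested over 19938 genes.

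Cyp2b19 differed by 5.43 ± 0.26 (SE, adjusted p = 7.34e-12), with a change of 5.75 after P14 and of 0.33 in the earlier step. Psca differed by 4.53 ± 0.82 (adjusted p = 0.00132), and its 3 arrays at P7 had an SD of 1.95. Prdm1, a transcriptional repressor of terminal differentiation, differed by 3.71 ± 0.8 (adjusted p = 0.00667), although its change after P14 was 1.3 and not called (adjusted p = 0.142). In the earlier step Prdm1 fell by 2.41 on the log2 scale. Trim12a, which has close relatives in the mouse genome, differed by 3.7 ± 0.98 (adjusted p = 0.0278), and this call was lost when any of 7 single arrays was left out (adjusted p of 0.055 to 0.0923). Those arrays were P28 replicates 1 and 2, P14 replicates 1 and 2, P7 replicate 3 and P3 replicates 1 and 3. Ly6g6c differed by 3.67 ± 0.4 (adjusted p = 4.53e-06) and Lncpint by 3.38 ± 0.44 (adjusted p = 4.78e-05).

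In the other direction Vwde differed by -6.9 ± 0.55 (adjusted p = 5.92e-08), with a change of -4.66 after P14 and of 2.25 in the earlier step. Otor differed by -4.82 ± 0.63 (adjusted p = 3.96e-05) and Tac1 by -4.28 ± 0.62 (adjusted p = 0.000145). Dkk1, a secreted inhibitor of Wnt signalling, differed by -4.08 ± 0.57 (adjusted p = 8.7e-05). Nostrin, known as a regulator of endothelial nitric oxide synthase, differed by -3.92 ± 0.36 (adjusted p = 4.67e-07). Car3, a carbonic anhydrase, differed by -3.86 ± 0.82 (adjusted p = 0.00613), with a change of -1.42 after P14 that was not called (adjusted p = 0.114) and of 2.44 in the earlier step. The steps span 14 and 4 days, and the part of the longer span in these differences was not tested.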

How the results depend on the processing

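Of 177 results on named genes 126 kept their direction and their side of the threshold under every alternative run, and 1 reversed. Eif2s3y, not called at -2.03, ranged between -3.17 and 0.23 with single arrays left out, and was 0.23 without P28 replicate 1, where it lay near the floor. The counts of 324 higher and 567 lower genes stayed within 1.5 times under most settings. They moved further to 539 higher with the values as deposited, to 584 higher with each array shifted to the same median, to 1416 higher and 1315 lower with no fold limit, and to 492 higher (401 lower) with both P28 replicate 3 and P14 replicate 1 left out, a setting chosen after the data were seen. With each array left out in turn 264 to 429 genes were called higher and 472 to 617 lower. For the contrast of the steps no fold limit gave 301 higher genes, and single arrays left out gave 123 to 206 higher and 334 to 519 lower. The replicate block gave 329 higher and 566 lower genes. The median difference over all genes was -0.035 after quantile normalization, -0.008 as deposited and 0.02 with the median shift. With 3 arrays an age, differences such as that of Lum (-1.38, adjusted p = 0.0537) were not resolved, and the causes of these shifts were not tested.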
